A study of Mus musculus with 6 samples.

Results

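Prl2c2, Prl2c3, Prl2c5 and Prl8a9 are 4 genes of the mouse prolactin family, taken here from the 23420 genes of a count table of cultured epidermal keratinocytes. They were chosen by symbol, for their lower counts in the knockout columns, so their difference between the groups is given as a description and is not tested. A further 24 rows of the table belong to the same family of hormones (Prl, Gh and the other placental members) and were used for comparison.

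The 3 libraries labelled iKO (induced knockout) carried K14CreERT2, a Cre recombinase activated by tamoxifen and driven by the keratin 14 promoter of basal keratinocytes, together with floxed Gata6 alleles (Gata6 fl/fl). The 3 libraries labelled WT carried the same floxed alleles without K14CreERT2. All cultures were in low-calcium medium at passage 8 to 10 and were exposed to 1 µM 4-hydroxytamoxifen for 6 hours, so the WT group received the drug too. Counts of mRNA reads per gene totalled 32751896, 44784847 and 83337263 in iKO 3, iKO 4 and iKO 33, against 21943467, 79055307 and 34047196 in WT 2, WT 3 and WT 4. The labels give no ages and do not say if the replicates are separate animals or cultures, so the spread between libraries may be technical. In bulk RNA, fewer cells that make a transcript and less transcript per cell cannot be told apart.

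Prolactin family proteins are secreted, four-helix hormones related to growth hormone. In the mouse the family has expanded into a gene cluster whose members are made mostly in the placenta and the uterine lining of pregnancy. Prl2c2, also called proliferin, was first known as a growth-induced transcript of cultured mouse fibroblasts; it promotes vessel growth and binds the receptor for mannose 6-phosphate and IGF2, the product of Igf2r. Prl2c3 and Prl2c5 are close copies of it. Prl8a9 encodes a placental prolactin-like protein of the C type.

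The Prl2c genes are shown first as sequence, because how nearly alike they are decides what their counts can say. All 4 genes lie on chromosome 13 (mm10). Prl2c3 (ENSMUSG00000056457.6) spans 12790816 to 12800079 on the minus strand, Prl2c2 (ENSMUSG00000079092.4) 12996125 to 13005383 on the minus strand and Prl2c5 (ENSMUSG00000055360.13) 13182715 to 13191923 on the plus strand. Prl8a9 (ENSMUSG00000006490.3) lies apart from them, at 27557995 to 27564606 on the minus strand, inside the main prolactin gene cluster. The coding sequences of Prl2c2 and Prl2c3 were 99.6% identical, with 3 differences in 675 bases. Those of Prl2c5 and Prl2c2 were 96.1% identical, with 20 differences and a gap of 6 bases in total. Prl8a9 shared 52.7% to 54.1% with the other 3 genes. The 90 coding bases (287 to 376 of the coding sequence, GENCODE transcripts) in which Prl2c5 and Prl2c2 differed most are printed 5′ to 3′, with the 8 positions that vary among the 3 genes in capitals:
Prl2c2: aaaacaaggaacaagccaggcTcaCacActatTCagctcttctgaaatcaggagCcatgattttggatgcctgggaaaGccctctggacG
Prl2c3: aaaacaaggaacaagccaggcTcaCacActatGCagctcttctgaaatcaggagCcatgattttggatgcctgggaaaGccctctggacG
Prl2c5: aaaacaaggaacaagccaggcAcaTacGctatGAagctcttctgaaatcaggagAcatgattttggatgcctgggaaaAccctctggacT
Prl2c5 differed from Prl2c2 at 8 of these positions and Prl2c3 from Prl2c2 at 1.

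The share of each transcript that a short read can assign to 1 gene differed widely. Of all 50-base windows of the transcript, 10.5% in Prl2c2, 21.4% in Prl2c3, 61.4% in Prl2c5 and 100% in Prl8a9 occurred in no annotated transcript of another gene. With 100-base windows these shares were 33.6%, 37.7%, 91.3% and 100%. Windows were compared with transcripts, not with the whole genome, and the read length is not given in the sources used here. Prl8a9 counts are therefore free of exact matches to other annotated transcripts at the lengths tried, and Prl2c2 counts can come from a small part of the transcript.

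**Figure D1:**
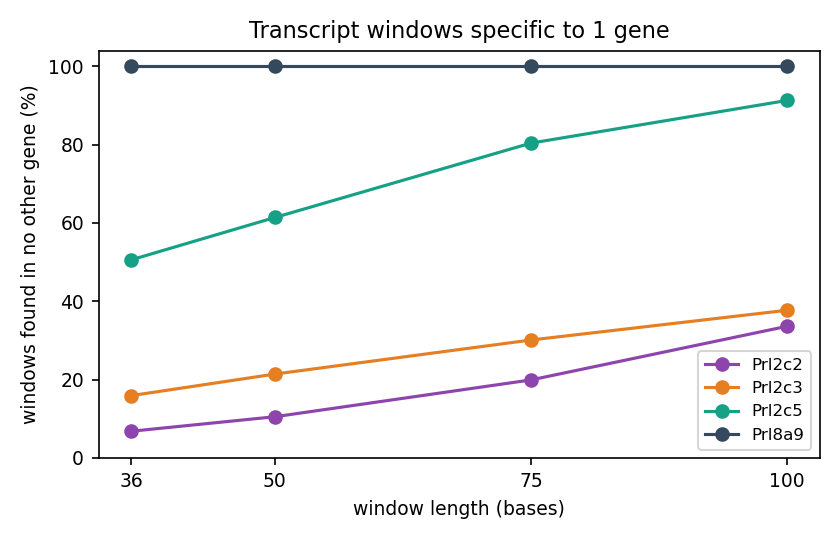
Share of windows of each gene's transcript that occur in no transcript of another gene (y axis, %) against window length in bases (x axis), 1 line per gene. At 50 bases Prl2c2 has 10.5% and Prl2c5 61.4%, while Prl8a9 stays at 100% at every length.

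Gata6, the targeted gene, had 14.2, 21.0 and 17.0 CPM (counts scaled to a common library size with TMM factors) in iKO 3, iKO 4 and iKO 33, against 2.86, 0.519 and 5.37 CPM in WT 2, WT 3 and WT 4. This is the opposite of what the labels say, although counts per gene do not show whether the floxed exons were lost, so every direction here is that of the label. Sex-linked transcripts also followed the labels: Xist had 0.0824 to 2.62 CPM in the libraries labelled iKO and 605 to 889 CPM in those labelled WT, and sex and genotype label cannot be told apart. All 15 keratinocyte markers were detected in both groups, with Krt5 at 15959 to 23621 CPM in the libraries labelled iKO and 14719 to 22409 CPM in those labelled WT. Of those markers Trp63, the p63 regulator of basal cells, stood at -0.68 on the log2 scale (SE 0.10, edgeR adjusted p = 0.0529), Cdh1 at 0.55 (SE 0.12, adjusted p = 0.130), Dst at -0.58 (SE 0.19, adjusted p = 0.224) and Krt15 at -1.28 (SE 0.49, adjusted p = 0.289). None of the 15 passed in edgeR and 4 were under 0.05 before adjustment, beside 15.0% of all tested genes. Trp63 and Cdh1 passed in DESeq2, beside 5.57% of the genes it tested.

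Prl8a9 gave the steadiest WT level of the members. It had 998, 1380 and 866 counts in iKO 3, iKO 4 and iKO 33, against 5963, 24733 and 9324 counts in WT 2, WT 3 and WT 4. On the normalised scale this was 31.9, 30.7 and 10.2 CPM in the libraries labelled iKO, and 275, 313 and 265 CPM in those labelled WT. The groups did not overlap: the lowest WT library was 8.31 times the highest iKO library, and iKO 33 stood below the other iKO libraries (highest over lowest 3.13). Group means were 24.3 ± 12.2 CPM and 284 ± 25.4 CPM (SD, n = 3 each), a log2 fold change of -3.56 (SE 0.43). The WT libraries spread over a factor of 1.18, with a coefficient of variation of 8.94% against a median of 15.1% over all tested genes.

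Prl2c5 had the lowest log2 fold change of the members and a wider spread among the WT libraries. Its counts were 529, 307 and 1009 in iKO 3, iKO 4 and iKO 33, against 2696, 28335 and 6510 in WT 2, WT 3 and WT 4. This was 16.9, 6.82 and 11.9 CPM in the libraries labelled iKO and 124, 359 and 185 CPM in those labelled WT. Here too the groups did not overlap, with the lowest WT library 7.35 times the highest iKO library. Means were 11.9 ± 5.05 CPM and 223 ± 122 CPM (SD, n = 3 each), a log2 fold change of -4.24 (SE 0.51) that stood at -3.71 without WT 3. The WT libraries spread over a factor of 2.89, and 7.75% of tested genes had a larger coefficient of variation within that group.

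Prl2c2, the proliferin gene itself, differed less, and its groups overlapped. It had 430, 373 and 2927 counts in iKO 3, iKO 4 and iKO 33, against 522, 4788 and 1195 counts in WT 2, WT 3 and WT 4. Normalised, these were 13.7, 8.29 and 34.4 CPM in the libraries labelled iKO and 24.1, 60.6 and 34.0 CPM in those labelled WT. Of the iKO libraries, iKO 33 lay above both WT 2 and WT 4, while iKO 3 and iKO 4 lay below all 3 WT libraries. Means were 18.8 ± 13.8 CPM and 39.6 ± 18.9 CPM (SD, n = 3 each), and the log2 fold change of -1.07 (SE 0.56) was -1.85 without iKO 33 and -0.62 without WT 3. Those 2 libraries are the deepest of their groups and have the highest Prl2c2 of their groups; the part of depth in this was not tested.

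**Figure D2:**
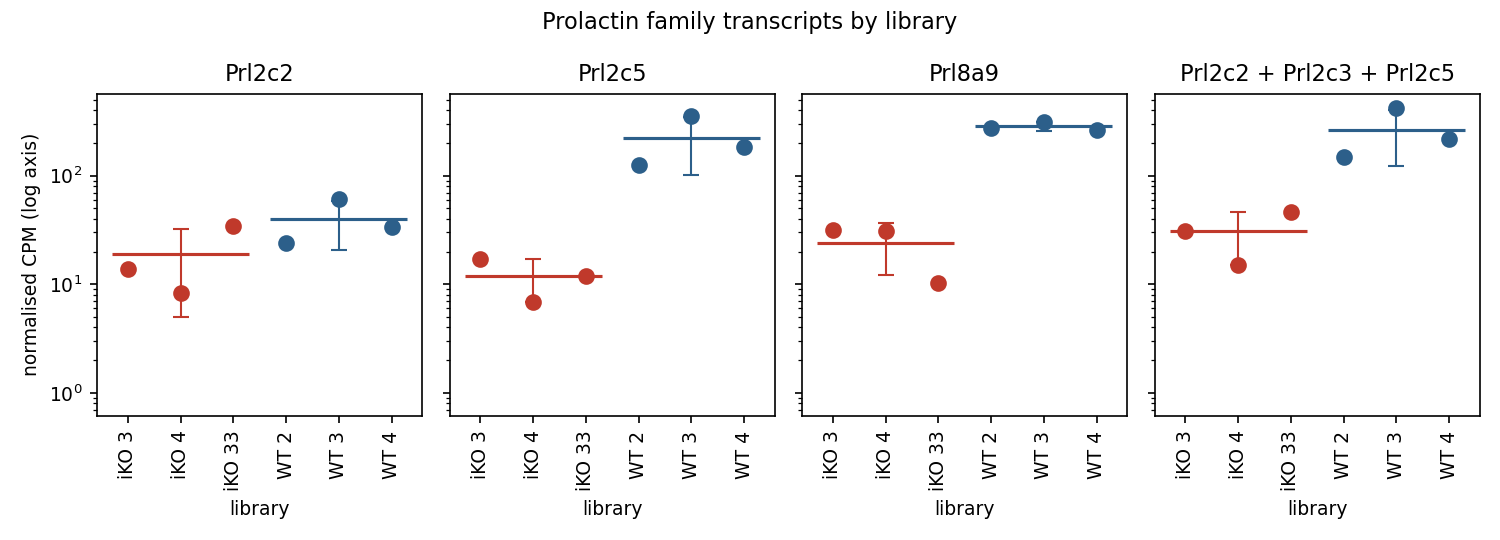
Normalised CPM (y axis, log scale) of Prl2c2, Prl2c5, Prl8a9 and the sum of the 3 Prl2c genes in each of the 6 libraries (x axis; red, labelled iKO; blue, labelled WT). Points are libraries, horizontal lines group means and error bars 1 SD (n = 3); the groups overlap for Prl2c2, where iKO 33 reaches 34.4 CPM, and are apart for the other 3 panels.

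Prl2c3, the closest copy of Prl2c2, had almost no counts in any library. There were 0, 1 and 1 counts in iKO 3, iKO 4 and iKO 33, and 0, 1 and 3 counts in WT 2, WT 3 and WT 4. The ratio of the pooled counts, 2 in the libraries labelled iKO and 4 in those labelled WT, was 0.420 per gene count. Its exact 95% interval, from 0.0380 to 2.93, covers counting error only, so no difference was detectable with so few counts. The gene did not pass the filter on low counts, unlike the other 3 members. Its transcript had more windows found in no other gene than that of Prl2c2, yet Prl2c2 had 2927 counts in iKO 33 and 4788 in WT 3. RefSeq gives Prl2c4 as an older name of Prl2c3, and the deposited table has a row for each, with Prl2c4 at 0 in all 6 libraries. Whether reads of Prl2c3 were set aside as ambiguous or not unique was not tested, so the near-zero row is no measure of the gene's expression.

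The sum of Prl2c2, Prl2c3 and Prl2c5 does not depend on how the counted reads were split between the 3. It was 30.7, 15.1 and 46.3 CPM in iKO 3, iKO 4 and iKO 33, against 148, 419 and 219 CPM in WT 2, WT 3 and WT 4. These groups did not overlap either, and the log2 fold change of the sum was -3.09 (SE 0.52), ranging from -3.52 without iKO 33 to -2.58 without WT 3. Reads that the aligner could not place uniquely are missing from all these rows, and they made up 21.7% to 26.5% of all counted reads in the libraries labelled iKO and 29.5% to 30.5% in those labelled WT. Their part in the difference was not tested.

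Of the 3 members that passed the filter, 2 (Prl2c5 and Prl8a9) passed edgeR's quasi-likelihood test after adjustment, where 0.110% of all 12672 tested genes passed as lower and 0.229% as higher. DESeq2 called the same 2, beside 5.57% of the genes it tested. The same 2 had groups that did not overlap, as did 11.3% of tested genes in that direction. The members were chosen on this contrast, so neither count is evidence. Ranked by log2 fold change from the lowest, Prl2c5 was 9th, Prl8a9 19th and Prl2c2 270th among the tested genes. In the authors' deposited table the log2 fold changes were -2.73 (SE 0.287) for Prl2c5, -2.50 (SE 0.275) for Prl8a9 and -0.62 (SE 0.299) for Prl2c2. DESeq2 as run here gave -4.24, -3.56 and -1.08 for the same genes, so the 2 sets may not be on the same measure. Whether the authors' method shrinks fold changes was not tested. The deposited table gives an adjusted p-value of 1.96e-18 for Prl2c5 and of 0.259 for Prl2c2, and lists no p-value for Prl8a9.

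Levels were compared between members per kilobase of annotated exon. In the libraries labelled iKO, Prl8a9 had 10.8 to 33.9, Prl2c2 7.60 to 31.6 and Prl2c5 5.80 to 14.4 CPM per kilobase, and these ranges overlapped one another. In the libraries labelled WT, Prl8a9 had 281 to 332, Prl2c5 106 to 305 and Prl2c2 22.1 to 55.6 CPM per kilobase. There the ranges of Prl8a9 and Prl2c5 overlapped and Prl2c2 lay below both. The Prl2c levels are lower limits, since reads shared with another gene are not in them. Sharing was not confined to the members. Gm7040 held 23.8% of the 50-base windows of Prl2c2 and 10.3% of those of Prl2c5, and Prl2c1 held 13.2% and 19.5%. The shortfall can differ between genes, as 10.5% of 50-base windows in Prl2c2, 61.4% in Prl2c5 and 100% in Prl8a9 occurred in no other gene. Its part in the order of levels was not tested.

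The balance between Prl2c5 and Prl2c2 was nearly the same in every WT library and varied among the iKO libraries. Counts of Prl2c5 divided by those of Prl2c2 were 1.23, 0.823 and 0.345 in iKO 3, iKO 4 and iKO 33, against 5.16, 5.92 and 5.45 in WT 2, WT 3 and WT 4. As a share of the counts of both genes, Prl2c5 made up 25.6% (exact 95% interval 24.3% to 27.0%) in iKO 33, the lowest, and 85.5% (85.2% to 85.9%) in WT 3, the highest. No iKO library reached the WT range, and within the WT group the ratio spread by a factor of 1.15 while the level of Prl2c5 spread by 2.89. The ratio of windows specific to each gene, Prl2c5 over Prl2c2, was 5.88 at 50 bases, 4.05 at 75 bases and 2.72 at 100 bases. The ratio of counts is thus not a ratio of transcripts unless the read length is known, but that factor is the same for all 6 libraries if they were sequenced alike.

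**Figure D3:**
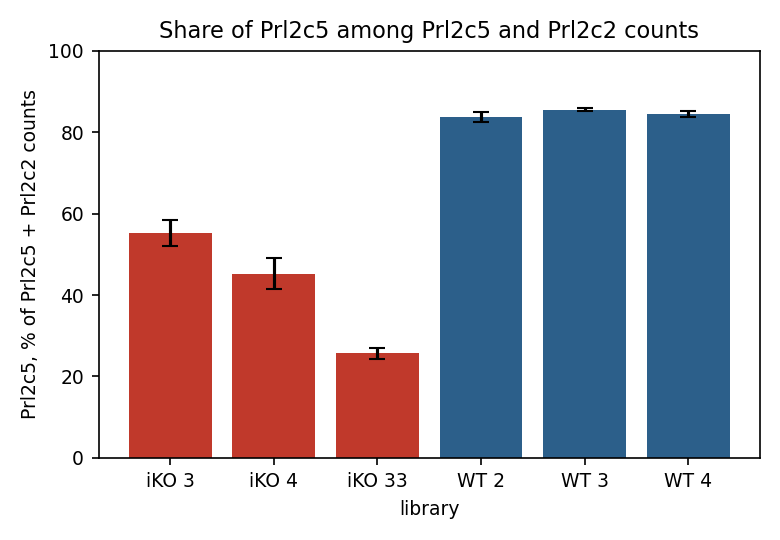
Counts of Prl2c5 as a percentage of the counts of Prl2c5 and Prl2c2 together (y axis) in each library (x axis; red, labelled iKO; blue, labelled WT), with exact 95% binomial intervals that cover counting error only. The WT libraries lie within 83.8% to 85.5% and the iKO libraries between 25.6% and 55.2%.

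Prl8a9 did not keep such a balance with the Prl2c genes. Prl8a9 counts divided by those of Prl2c5 were 1.89, 4.50 and 0.858 in iKO 3, iKO 4 and iKO 33, against 2.21, 0.873 and 1.43 in WT 2, WT 3 and WT 4. The groups overlapped in this ratio, which moved by a factor of 5.24 among the iKO libraries and 2.53 among the WT libraries. Prl8a9 counts divided by those of Prl2c2 were 2.32, 3.70 and 0.296 in iKO 3, iKO 4 and iKO 33. In WT 2, WT 3 and WT 4 they were 11.4, 5.17 and 7.80, so here the groups did not overlap. That ratio moved by a factor of 12.5 among the iKO libraries and 2.21 among the WT libraries. The library with the highest Prl2c2 in the iKO group, iKO 33, had the lowest Prl8a9.

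The wider prolactin family was close to silent in these cultures apart from a few placental genes. Of the 24 other family genes, 6 had no count in any library (Gh, Prl2c4, Prl3b1, Prl3c1, Prl3d1 and Prl3d3), 15 had 1 to 99 counts over all 6 libraries, and 3 had 100 or more. Prl itself, the pituitary hormone, had 0.192, 0.0222 and 0.118 CPM in iKO 3, iKO 4 and iKO 33, against 0.0461, 0.139 and 0.0569 CPM in WT 2, WT 3 and WT 4, with overlapping groups. A count of 0 allows up to 0.0353 to 0.0959 CPM in a library labelled iKO and 0.0380 to 0.138 CPM in one labelled WT, for counting error alone. The low but non-zero genes were Prl2a1, Prl2b1, Prl2c1, Prl3a1, Prl3d2, Prl4a1, Prl5a1, Prl6a1, Prl7a1, Prl7a2, Prl7c1, Prl7d1, Prl8a2 and Prl8a8, each under 0.5 CPM in all libraries. Over all 28 family rows the sum was 51.2 to 78.9 CPM in the libraries labelled iKO and 456 to 781 CPM in those labelled WT, and Prl2c5 with Prl8a9 supplied 29.3% to 73.3% of those counts in the libraries labelled iKO and 86.1% to 87.9% in the libraries labelled WT.

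The 3 other family genes that passed the filter were Prl8a1, Prl8a6 and Prl7b1, all placental and all in the cluster around Prl8a9. Prl8a1, whose gene starts 17.6 kb from that of Prl8a9, had 13.5, 3.58 and 17.0 CPM in iKO 3, iKO 4 and iKO 33, against 29.3, 42.7 and 24.1 CPM in WT 2, WT 3 and WT 4. Its groups did not overlap and its log2 fold change was -1.49 (SE 0.53), with an adjusted p of 0.264 in edgeR, above the threshold, and of 0.0399 in DESeq2, below it. Prl8a6 had 1.44, 0.978 and 0.906 CPM in iKO 3, iKO 4 and iKO 33, against 2.54, 1.71 and 2.02 CPM in WT 2, WT 3 and WT 4. It did not overlap either, at a log2 fold change of -0.92 (SE 0.33, edgeR adjusted p = 0.262). Prl7b1 stood at -2.08 (SE 0.77, edgeR adjusted p = 0.284) with overlapping groups, and 2.18 CPM in WT 3 set its WT mean. None of the 3 passed in edgeR, where 0.339% of tested genes did in either direction. All 3 had an unadjusted p under 0.05, as did 15.0% of tested genes. Groups were apart and lower in iKO for 2 of the 3, beside 11.3% of tested genes. Only Prl8a1 passed in DESeq2, beside 5.57% of the genes it tested.

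**Figure D4:**
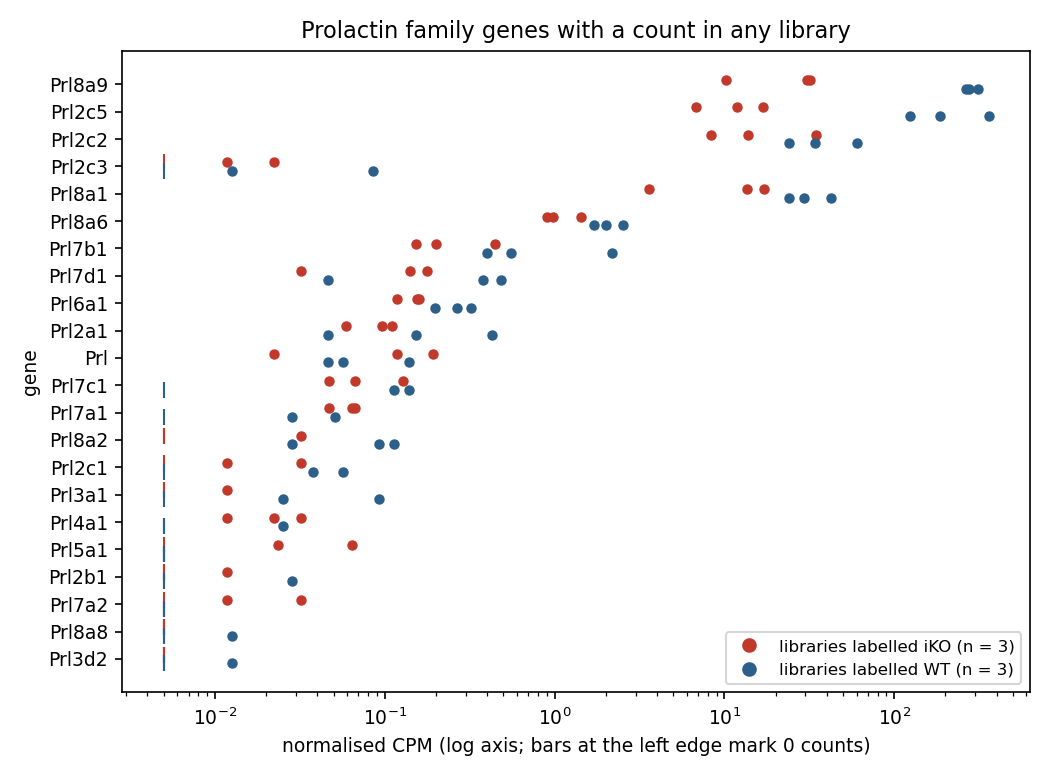
Normalised CPM (x axis, log scale) of the prolactin family genes with a count in any library (y axis), each point 1 library (red, labelled iKO; blue, labelled WT; 3 each) and each bar at the left edge a library with 0 counts. Prl8a9 and Prl2c5 lead in the WT libraries. Prl2c2 at 24.1 to 60.6 CPM and Prl8a1 at 24.1 to 42.7 CPM come next, and most other members stay under 0.5 CPM.

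The upstream sequences of the Prl2c copies are nearly as alike as their coding parts. The promoter table (RefSeq, GRCm38.p6) held 3 of the 4 members, Prl2c3, Prl2c5 and Prl8a9. Over 300 bases around the start, Prl2c3 and Prl2c5 were 95.3% identical. The 250 bases before the start that the promoter table sets for Prl2c3 (chr13:12800080-12800329, minus strand) and Prl2c5 (chr13:13182466-13182715, plus strand) are printed 5′ to 3′, with matches to 2 motifs in capitals. By GENCODE, base 13182715 is already the first base of Prl2c5. RefSeq gene spans begin at 12800093 for Prl2c3 and 13182703 for Prl2c5, so the last bases printed can be transcribed. The motifs were the AP-1 heptamer TGANTCA and 4 GATA hexamers, searched on both strands; no match overlapped another. The hexamers searched were AGATAA along with the form AGATAG, then also TGATAA along with the form TGATAG. AP-1 factors are known to drive the proliferin gene in cultured cells, and GATA factors placental lactogen and proliferin genes in mouse trophoblast.
Prl2c3: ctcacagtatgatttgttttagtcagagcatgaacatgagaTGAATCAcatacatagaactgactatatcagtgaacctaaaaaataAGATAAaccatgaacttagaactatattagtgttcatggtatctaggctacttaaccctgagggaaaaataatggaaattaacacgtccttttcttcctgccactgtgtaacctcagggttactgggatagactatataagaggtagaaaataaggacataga
Prl2c5: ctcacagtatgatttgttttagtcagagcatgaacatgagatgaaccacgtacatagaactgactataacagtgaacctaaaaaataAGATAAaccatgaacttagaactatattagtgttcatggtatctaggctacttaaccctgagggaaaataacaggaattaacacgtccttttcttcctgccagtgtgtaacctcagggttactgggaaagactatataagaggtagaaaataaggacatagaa
Both held AGATAA with its first base at -163, and Prl2c3 also held TGAATCA at -209, where Prl2c5 had no match. A GATA hexamer was found in 29.8% of all 32841 promoters of the same length and an AP-1 heptamer in 7.8%, so these matches are a description and not sites. Prl8a9 held TGACTCA at position 4 after the start and no GATA hexamer in its 300 bases.

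The promoters of Prl8a9 and Prl8a1 were 80.9% identical over 300 bases. The last 80 bases before their starts, at chr13:27564607-27564686 for Prl8a9 and chr13:27582172-27582251 for Prl8a1 (both minus strand), are printed 5′ to 3′ because these neighbours share much of their upstream sequence. Capitals mark bases that differ or have no partner in the alignment:
Prl8a9: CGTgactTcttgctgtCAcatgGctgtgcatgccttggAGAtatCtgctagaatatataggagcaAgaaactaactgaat
Prl8a1: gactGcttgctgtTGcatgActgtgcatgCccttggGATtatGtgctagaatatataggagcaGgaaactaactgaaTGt

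Receptors and signalling genes of these hormones showed no called difference. All 20 listed genes were tested. In the libraries labelled iKO, 13 had a higher level and 7 a lower one. None passed in edgeR or DESeq2, beside 0.339% of all tested genes in edgeR and 5.57% in DESeq2. An unadjusted p under 0.05 was found for 3, beside 15.0% of all tested genes. The median log2 fold change of the 20 genes was 0.06, against 0.01 over all tested genes. Prlr, the prolactin receptor, was barely detected, at 0.480, 0.555 and 0.247 CPM in iKO 3, iKO 4 and iKO 33 and 0.323, 0.507 and 0.341 CPM in WT 2, WT 3 and WT 4. Igf2r, the receptor that binds proliferin, was well expressed, with 69.6, 78.0 and 118 CPM in the libraries labelled iKO and 106, 133 and 108 CPM in those labelled WT, overlapping, at a log2 fold change of -0.38 (SE 0.22, adjusted p = 0.454). The smallest p-values belonged to Cish, a feedback inhibitor of STAT5 signalling (0.88, SE 0.30, adjusted p = 0.253), Stat3 (0.35, SE 0.14, adjusted p = 0.307) and the kinase gene Jak1 (0.24, SE 0.10, adjusted p = 0.330).

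Genes of the AP-1 and GATA factors named above were counted as well. Whether these factors act on the promoters shown here was not tested. Of 7 AP-1 subunit genes, 6 had positive log2 fold changes. None passed in edgeR and 2 were under 0.05 before adjustment, beside 15.0% of all tested genes. DESeq2 called 1, beside 5.57% of the genes it tested. Jund stood at 0.46 (SE 0.11, edgeR adjusted p = 0.149; DESeq2 adjusted p = 0.0259), Fosl2 at 0.30 (SE 0.10, adjusted p = 0.249), Junb at 0.32 (SE 0.16, adjusted p = 0.398) and Fosb at 0.75 (SE 0.41, adjusted p = 0.443). Among 10 GATA factors and partners, 5 were tested and none passed in edgeR, with 1 unadjusted p under 0.05 and 1 DESeq2 call, both of Gata6. Gata3, the GATA factor of the epidermis, had 7.51, 6.07 and 5.24 CPM in iKO 3, iKO 4 and iKO 33, against 8.81, 9.41 and 5.17 CPM in WT 2, WT 3 and WT 4 (-0.32, SE 0.28, adjusted p = 0.649). Their partners Zfpm1 and Ldb1 stood at -0.22 and 0.09. Gata2, which acts on placental lactogen and proliferin genes in mouse trophoblast, had 8 counts in all 6 libraries together.

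Markers of the cell types best known for these hormones were mostly at 0 or too low to pass the filter. Of 26 trophoblast markers, 8 were at 0 in all libraries, among them Hand1, Tpbpb, Synb, Cdx2, Ctsq and Ctsr, and Tpbpa had 1 count. The summed level of the list was 159 to 603 CPM in the libraries labelled iKO and 50.2 to 84.2 CPM in those labelled WT. Krt8 and Krt18, simple-epithelium keratins that are not limited to trophoblast, made up most of the sum in the iKO libraries but not in WT 2 or WT 3, where Tfap2c had 26.9 and 29.7 CPM. Krt8 had 129, 491 and 105 CPM in the iKO libraries and 26.3, 10.7 and 47.5 CPM in WT 2, WT 3 and WT 4 (3.11, SE 0.77, edgeR adjusted p = 0.158), and Krt18 stood at 3.73 (SE 0.98, edgeR adjusted p = 0.170). Of the 8 tested markers, 4 had positive and 4 negative log2 fold changes. None passed in edgeR. The 3 under 0.05 before adjustment were also the 3 that DESeq2 called, Eomes (2.01, SE 0.45, edgeR adjusted p = 0.129), Krt8 and Krt18. Of all tested genes 15.0% were under 0.05 before adjustment, and DESeq2 called 5.57% of the genes it tested. Psg23, a placental glycoprotein gene, was at -0.84 (SE 0.41, edgeR adjusted p = 0.392). Fibroblast markers, relevant because proliferin was found in fibroblasts, summed to 9.34 to 25.4 CPM in the libraries labelled iKO and 9.95 to 12.7 CPM in those labelled WT, with Dcn, Lum and Fap at 0 and none of 3 tested genes called in edgeR or DESeq2 (Postn 1.26, SE 0.98; Col5a1 -0.23, SE 0.53; Pdgfra 0.17, SE 0.61; 0 with an unadjusted p under 0.05). Immune and endothelial markers summed to 10.4 to 11.9 CPM in the libraries labelled iKO and 12.1 to 23.3 CPM in those labelled WT, with Cd207 and Emcn at 0 and none of 4 tested called by either tool (Kdr -0.76, Pecam1 -0.47, Itgam 0.29 and Cd68 -0.08; 0 with an unadjusted p under 0.05). Whether any of these cells added to the prolactin family counts was not tested.

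Around the Prl2c genes, tested neighbours within 1 Mb were lower more often than higher. Of 13 tested neighbours, 9 had a log2 fold change below 0, as did 48.8% of all tested genes, and their median was -0.30. The groups did not overlap in 7 that were lower and 1 that was higher (Arid4b), beside 11.3% and 10.5% of tested genes. None passed in edgeR and 7 were under 0.05 before adjustment, beside 15.0% of all tested genes. DESeq2 called Edaradd, Ero1lb and Gpr137b-ps, beside 5.57% of the genes it tested. The nearest tested gene on one side was Gpr137b-ps, annotated as a pseudogene and 140 kb from Prl2c3, at -1.35 (SE 0.28, edgeR adjusted p = 0.109), and on the other Gpr137b, a lysosomal membrane protein gene, 166 kb from Prl2c5, at -0.90 (SE 0.30, adjusted p = 0.237). Reads of a gene and its pseudogene may be split between the 2 rows, so both are uncertain. Edaradd, the adaptor of the ectodysplasin receptor, lies 476 kb from Prl2c2, with Prl2c3 between them, and stood at -1.06 (SE 0.18, edgeR adjusted p = 0.0727). The other tested neighbours were Ero1lb (-0.95), Heatr1 (-0.43), Mtr (-0.40), Lgals8 (-0.30), Lyst (-0.29), Gm10336 (-0.27), B3galnt2 (0.02), Tbce (0.03), Ggps1 (0.14) and Arid4b (0.68). The lowest neighbour, at -1.35, was above Prl2c5 at -4.24.

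**Figure D5:**
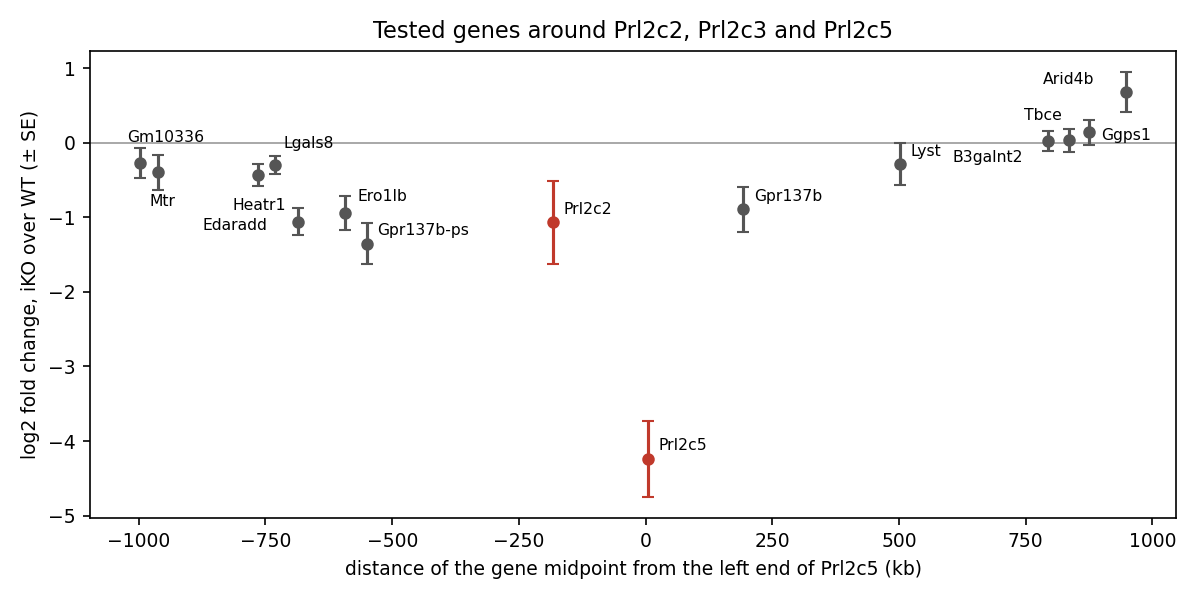
Log2 fold change of libraries labelled iKO over WT (y axis, ± SE) for tested genes around the Prl2c genes, against the distance of each gene's midpoint from the left end of Prl2c5 in kb (x axis); red, Prl2c2 and Prl2c5; grey, other genes. Prl2c5 stands at -4.24, the neighbours from Mtr to Lyst lie between -1.35 and -0.27, and Arid4b at the right end is at 0.68.

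Within 1 Mb of Prl8a9 the table held 24 other genes, 22 of them prolactin family members. The 4 tested were Prl8a1, Prl8a6, Prl7b1 and 2610307P16Rik, all with negative log2 fold changes and none past the threshold in edgeR. An unadjusted p under 0.05 was found for 3, beside 15.0% of all tested genes. DESeq2 called Prl8a1, beside 5.57% of the genes it tested.

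The genes whose profile over the 6 libraries lay nearest to the members were found by Euclidean distance between centred log2 CPM values. Prl8a9 and Prl2c5 were 2.01 apart, with 9 of all tested genes nearer to Prl8a9 than Prl2c5 was, while Prl2c5 and Prl2c2 were 3.87 apart, with 134 of all tested genes nearer to Prl2c5. The nearest genes were named only among those with a mean log2 CPM of at least 1, without the members and predicted gene models. Within that set the 5 nearest to Prl2c5 were the glycosyltransferase gene B3gnt3 (1.88), Taf9b (1.97), the T-box factor gene Tbx1 (2.06), Fkbp10 (2.33), which encodes a chaperone of collagen folding, and the homeobox gene Hmx1 (2.36). Within the same set the 5 nearest to Prl8a9 were the glycosyltransferase gene Gyltl1b (1.78), Fkbp10 (1.78), B3gnt3 (1.82), Tbx1 (1.87) and Il1rl2 (2.14), which encodes the interleukin-36 receptor. So 3 genes were in both lists. As the members were chosen for low counts in the iKO columns, genes near them are low there by construction: Tbx1, for example, had 2.17, 0.667 and 0.930 CPM in iKO 3, iKO 4 and iKO 33, against 10.8, 9.46 and 6.40 CPM in WT 2, WT 3 and WT 4.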

How the data were processed

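Keratinocyte RNA for the 6 libraries was prepared with TruSeq RNA v2, per the labels' protocols. The count table, as deposited, lists raw read counts by gene symbol. TopHat2, HTSeq and mm10 are named without versions in the submitters' processing notes; no annotation, strandedness or read length was found in the sources used here. Its 5 HTSeq summary rows, 27.4% to 35.5% of all counts, were left out. The authors' deposited table of results holds log2 fold changes with errors, p-values, a test score and the normalised signal averaged over libraries; its fold changes are positive where iKO is higher.

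The column numbered 33 matches no iKO title and was used as an iKO library. Genes were kept by edgeR's filterByExpr (minimum count 10), leaving 12672, scaled by TMM and compared with edgeR 4.0.16's quasi-likelihood test (robust, two-sided, R 4.3.3) with Benjamini-Hochberg adjustment at 0.05. SE is the log2 fold change over the square root of F. CPM uses TMM-scaled library sizes; profiles use log2 CPM with a prior count of 2. Floors are 3 counts per library, and intervals are at 95%. DESeq2 1.42.0 and limma 3.58.1 (voom) were alternatives, with other scaling, no filter, a replicate block and each library left out. Positions come from GENCODE M21 (mm10) or, for 1478 symbols, RefSeq on the same build, together 99.3% of symbols. The test was checked on simulated data. Named genes are the members, Gata6, family genes with a count, up to 4 genes per list by p (1 gene of the signalling list is not reported here), neighbours within 1 Mb and the 5 nearest profiles; Igf2r, Prlr, Gata2, Krt5 and Xist were added after their values were seen. The members and lists were chosen with earlier results of these data known.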

Additional observations from a re-analysis of the deposited data

How the results depend on the processing

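Prl2c5, Prl8a9 and the Prl2c sum kept their sign and moved by less than the spread between libraries under every alternative run. Leaving out 1 library at a time moved the log2 fold change from -4.57 to -3.71 for Prl2c5, from -3.80 to -3.18 for Prl8a9, from -3.52 to -2.58 for the sum and from -1.85 to -0.62 for Prl2c2. The number of genes called was 43 and went to 76 with no filter on low counts and 757 in DESeq2, and to between 7 (without WT 2) and 31 (without WT 3) with 1 library left out. Prl8a9 was called without iKO 33 and Prl2c5 without WT 3, and neither was called in the other 4 such fits or, for Prl2c5, with no filter. List genes called, 0 in edgeR, were 1 (Trp63) with no filter and in limma-voom, and 8 in DESeq2; neighbours, 0 in edgeR, were 4 in DESeq2.

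A replicate block could be fitted only on the 4 libraries numbered 3 and 4, whose deviations from their group means correlated at 0.596; the labels do not say that numbers pair cultures. With the replicate block 103 genes, 2 list genes (Krt8 and Krt18) and 2 neighbours (Gpr137b and Gpr137b-ps) were called, Prl2c2 was called beside Prl2c5 and Prl8a9, and it stood at -2.09; the same 4 libraries unpaired, a fit chosen after seeing the data, gave 4 genes and -2.11, with Prl8a9 called and Prl2c2 and Prl2c5 not. Prl2c3 did not pass the filter and gave no fitted value. RLE scaling moved the median of all genes by 0.000186 on the log2 scale. Few counts limit Prl2c3 and the low family genes, and shared reads limit all Prl2c rows.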

Other observations

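Among the WT libraries, Prl2c2 and Prl2c5 were highest in WT 3, then WT 4, then WT 2, and 7 of the 13 tested neighbours within 1 Mb had the same order, which 20.3% of all tested genes had. It is also the order of depth, with 79055307, 34047196 and 21943467 gene counts in WT 3, WT 4 and WT 2, and the part of depth was not tested. The order was noticed in the values of the members, and genes are not independent, so it is given as a description.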
